A study of Homo sapiens with 30 samples.

Results

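The comparison is that of U2932 cells kept under YK-R for 8 h with U2932 cells kept under YK-R for 4 h. Its members are the 6 of 30 bead arrays that the column names of the deposited log2 table label as U2932, YK-R and 8 h (3 arrays) or 4 h (3 arrays). U2932 is a cell line of diffuse large B cell lymphoma of the activated B cell type. Per the labels, the lymphoma lines TMD8 and U2932 were treated with YK-S or YK-R, and U2932 also with DMSO, the solvent. YK-S and YK-R are taken to be the mirror-image forms of the first ETS inhibitor in the series title, which the labels do not spell out. The other U2932 arrays used here are YK-S at 8 h and 4 h and DMSO at 8 h and 4 h, again 3 arrays each. The labels name no genetic change in any group and give no dose. They do not tell cultures from repeat hybridisations, so p-values measure the spread between arrays, which may be technical. That spread, and each SE given below, is pooled over the 6 U2932 groups and is not that of the YK-R arrays alone. In such bulk RNA, fewer cells of a type and less RNA per cell cannot be told apart.

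That inhibitor is a small molecule made to block the contact between the ETS fusion protein EWS-FLI1 and the RNA helicase DHX9, and its S form is known as the active one. ETS factors are DNA-binding proteins that recognise a short GGAA core, and SPIB, a lymphoid member, is part of the transcription programme of activated B cell lymphoma together with IRF4. The comparison of times under 1 compound asks which transcripts differ between a later and an earlier harvest. Cultures handled over several hours also change without any compound, for example in heat shock genes and in immediate early genes, whose mRNAs are short-lived. The DMSO arrays of the same times were therefore fitted too, and their values stand beside the main lists and with the other treatments at the end.

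The arrays differed in brightness before the conditions were compared. Mean raw signal over all probes was 85.4, 307.0 and 328.5 intensity units on the YK-R arrays at 8 h (replicates 1, 2 and 3), against 253.9, 102.7 and 98.8 at 4 h. Arrays under 200 units are called dim here, which makes 1 of 3 dim at 8 h and 2 of 3 at 4 h; the YK-S groups had the same 1 and 2, and the DMSO groups had 0 and 2. The 4 h replicate 2 had 40.4% of its probes above background, far more than the other dim YK-R arrays with 24.2% and 25.4%, and it stood apart from its group in many of the results. The deposited signal table gives none of the 18 U2932 arrays the name it has in the log2 table. Matched by the rank order of their probes, only 1 of the 6 YK-R arrays lies in the same group under both sets of names. Under the signal table's names the YK-R 4 h replicate 1 is DMSO at 8 h, and the YK-R 8 h replicate 1 is DMSO at 4 h. The other U2932 arrays keep their time. With the signal table's names no feature was called. Everything that follows rests on the log2 table's names. B cell markers were above background on all 6 arrays for 5 of 6 genes measured (MS4A1, CD79A, CD79B, CD22 and BLK, not PAX5), against 0 of 7 T cell genes and 0 of 7 myeloid genes, of which CD14 came nearest with 5 arrays. Of 8 stromal and epithelial genes, EPCAM was above background on all 6 arrays.

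**Figure D1:**
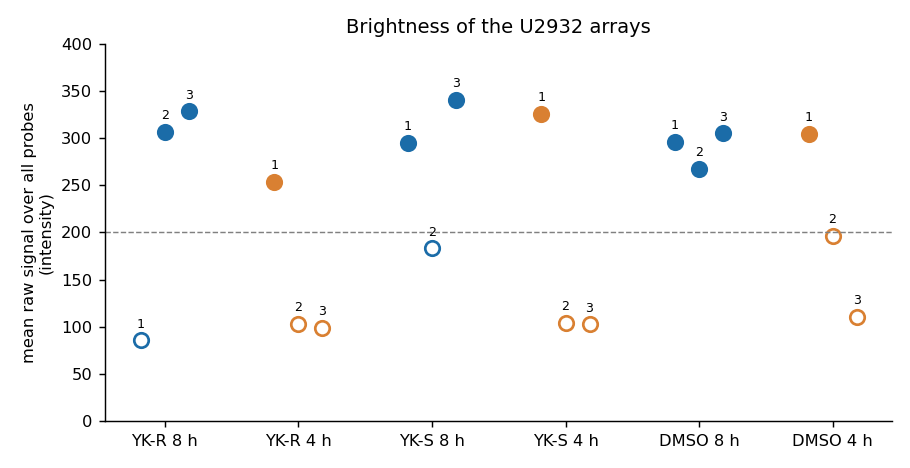
Mean raw signal over all probes (intensity units, vertical axis) of each U2932 array, with the replicate number above each point; blue is 8 h, orange is 4 h, open points are dim arrays and the dashed line is the limit of 200. A single YK-R array at 8 h and 2 at 4 h lie under the line.

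Of 15365 features measured (10405 named genes and 4960 unnamed probes), 1055 (6.87%) passed an adjusted p of 0.05 in limma between 8 h and 4 h under YK-R. At 8 h 618 of them were higher (4.02%) and 437 lower (2.84%), and the median difference over all features was 0.01 on the log2 scale. The 3 arrays of a time lay entirely above or below the 3 of the other for 3108 features (20.2%), which includes 1030 of the called ones. A fit of the 6 YK-R arrays alone called 0 features, with 1734 at an unadjusted p under 0.05, so the calls draw on the spread estimated from all 18 U2932 arrays. Leaving out 8 h replicate 2 or 8 h replicate 3 lowered the count to 559 and 509, and leaving out 4 h replicate 3 raised it to 2194, while 357 features were called in each of the 6 fits that left out a YK-R array. Without 4 h replicate 2 the balance turned, with 497 features higher and 631 lower.

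The differences were also read within each brightness class, 2 arrays against 1 among the bright and 1 against 2 among the dim. All 1055 called features had the same direction in both classes, which the call on these same arrays nearly fixes, against 58.6% of all features. The median of the 618 higher features was 0.48 among bright arrays and 0.67 among dim arrays, and that of the 437 lower features was -0.66 and -0.70. Over all features the differences of the classes correlated at r = 0.294, a description over features of arrays that share no library.

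**Figure D2:**
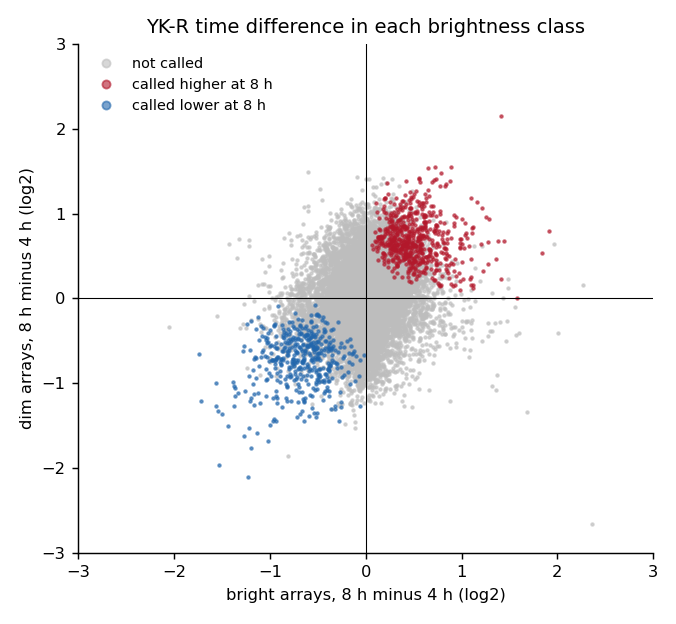
Log2 difference of 8 h minus 4 h under YK-R among the bright arrays (horizontal axis) against that among the dim arrays (vertical axis), 1 point per feature, with features called higher in red, called lower in blue and the others in grey. The called features lie in the upper right and lower left.

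Heat shock chaperones made up the most frequently called list. These proteins fold and refold other proteins in the cytosol and are switched on by the factor HSF1 when misfolded protein builds up. Of 22 tested members 9 rose and 2 fell, 11 of 22 called against 6.87% of all features, with a list median of 0.49. In DMSO the list had a median of 0.31, with 3 members called higher and 1 lower. Only 1.43% of all features were called in DMSO, and the DMSO counts of every list stand against that share. HSPA1B, an inducible cytosolic HSP70, had log2 values of 10.5, 9.92 and 10.5 at 8 h, against 8.79, 8.15 and 8.62 at 4 h. All 3 later arrays lay above all 3 earlier ones, by 3.47-fold (log2 1.79, SE 0.26, adjusted p = 0.000981), the largest increase of any named gene that passed with separated arrays. HSPA1B and HSPA1A are near-identical copies, so the signal of a probe to either is uncertain. The HSPA1A probe, named after its values were seen, differed by 0.52 (SE 0.23, adjusted p = 0.18).

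STIP1, the adaptor that hands client proteins from HSP70 to HSP90, had 9.91, 9.74 and 9.48 at 8 h, against 8.45, 8.96 and 8.60 at 4 h, and rose 2.06-fold (log2 1.04, SE 0.14, adjusted p = 0.000552). HSPH1, which renews the nucleotide on HSP70, had 9.878, 10.02 and 10.30 at 8 h, against 8.776, 9.403 and 9.003 at 4 h (log2 1.004, SE 0.21, adjusted p = 0.0102). Neither gene's groups overlapped. CHORDC1, an HSP90 partner (0.94), the J-domain co-chaperones DNAJB1 (0.77) and DNAJA1 (0.54), the constitutive HSP70 HSPA8 (0.75), CACYBP (0.69) and HSP90AB1, the constitutive HSP90 (0.65), also rose. Second probes of CHORDC1 and CACYBP differed by 0.11 and 0.08, and the means of their probes by 0.53 and 0.38. HSP90AA1, the inducible HSP90, was named after its values were seen because it lay below 0 without passing (-0.52, SE 0.16, adjusted p = 0.0627, and 0.0405 without 8 h replicate 1), while its other probes lay between 0.05 and 0.47. CCT3, a subunit of the TRiC chaperonin that folds actin and tubulin, is outside the list and rose by 1.02 (SE 0.13, adjusted p = 0.000453). The calls of 7 of the 11 list members held whichever YK-R array was left out; HSPH1 and CHORDC1 missed it without 8 h replicate 3 (adjusted p = 0.0523 and 0.0571), and DNAJA1 and HSP90B1 missed it in 4 of 6 such fits (up to 0.103 without 8 h replicate 1 for DNAJA1 and 0.139 without the same array for HSP90B1, which differed by -0.41 without 4 h replicate 2).

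The members of the heat shock list that fell are those of the endoplasmic reticulum, HSPA5 and HSP90B1. HSPA5, known as BiP, is the HSP70 of that compartment and the classical target of the unfolded protein response. It had 7.94, 7.91 and 8.10 at 8 h, against 9.34, 8.97 and 9.14 at 4 h, and fell by 1.16 on the log2 scale (SE 0.15, adjusted p = 0.00045). The groups did not overlap. In the unfolded protein response list 4 of 20 tested members fell (20%, against 2.84% of all features) and 0 rose, with a median of -0.13. In DMSO the median was -0.20, with 1 member called lower. SDF2L1, a partner of HSPA5, fell by 0.77 (SE 0.15), HSP90B1, the reticulum's HSP90, by 0.66 (SE 0.19), and CANX, the membrane lectin calnexin, by 0.53 (SE 0.10). A second CANX probe above background differed the other way (0.54), so the gene's direction depends on the probe.

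Promoters of these genes were read from RefSeq (GRCh38.p14, 250 bases before to 50 after each gene's start) to show the elements by which the cytosolic and the reticulum chaperones are known to be controlled. A heat shock element was searched on both strands as the units GAA, TTC and GAA with 2 free bases between neighbours, and an ER stress element as CCAAT and CCACG with 9 free bases between them, and overlapping matches were kept. Capitals mark the matched letters. The genes shown were picked among those that were called and held a match.

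HSPA8, heat shock element, chr11:123062324-123062386, minus strand: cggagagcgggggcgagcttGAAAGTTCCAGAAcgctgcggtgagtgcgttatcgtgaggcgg
CHORDC1, heat shock element, chr11:90223057-90223139, minus strand: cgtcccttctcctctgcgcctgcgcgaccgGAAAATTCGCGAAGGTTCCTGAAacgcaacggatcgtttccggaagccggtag
HSPA5, ER stress element, chr9:125241361-125241439, minus strand: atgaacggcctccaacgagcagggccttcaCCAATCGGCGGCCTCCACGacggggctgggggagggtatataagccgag
HSP90B1, ER stress element, chr12:103930186-103930264, plus strand: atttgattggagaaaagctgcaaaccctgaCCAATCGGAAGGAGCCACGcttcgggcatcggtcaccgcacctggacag
CANX, ER stress element, chr5:179698748-179698826, plus strand: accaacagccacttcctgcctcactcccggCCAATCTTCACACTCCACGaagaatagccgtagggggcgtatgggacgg

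The heat shock element was found in 0.323% of the 8353 promoters of tested genes and 0.487% of all 27305, in 4 of 382 promoters of genes called higher (1.05%) and in 1 of 303 of genes called lower (0.33%). The lower gene is CD83. Among 20 tested heat shock chaperones whose promoters were read, only 4 held it. These are HSPA8, DNAJA1 and CHORDC1, all called higher, and DNAJB6, not called. Of the 9 list members that rose, 3 thus held this form of the element. In CHORDC1 3 overlapping matches form a longer run, and HSPA8 has a second match outside the window shown. The ER stress element was rarer, in 0.168% of the promoters of tested genes and 0.0806% of all (22 promoters), with 0 of the 382 higher genes and 3 of the 303 lower ones (0.99%), which are HSPA5, HSP90B1 and CANX. Of 20 tested members of the unfolded protein response list 6 held it, among them CALR, XBP1 and CRELD2, which were not called. In all 7 motifs were searched, and a match describes letters only. The ETS motif CCGGAAGT was in 12.3% of the higher and 7.26% of the lower promoters, against 9.63% of the 8353 promoters of tested genes. The cyclic AMP response element TGACGTCA was in 3.66%, 4.62% and 3.62% in the same order, the AP-1 motif TGACTCA in 3.14%, 1.65% and 2.83%, the E-box CACGTG in 12.8%, 11.9% and 10.6%, and the NF-kB motif of the immunoglobulin kappa enhancer in 0, 0 and 0.251%.

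**Figure D3:**
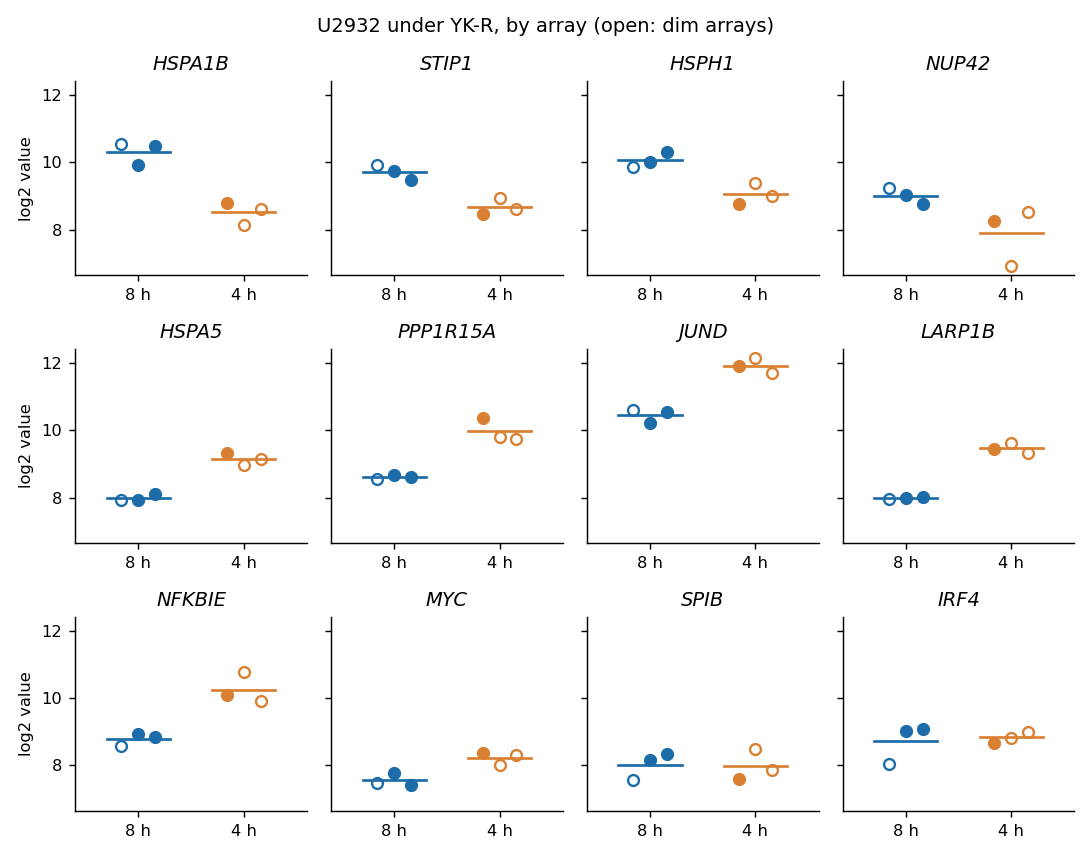
Log2 values (vertical axis) of 12 genes on the 3 YK-R arrays of 8 h (blue, left) and the 3 of 4 h (orange, right), with replicates 1 to 3 from left to right, the group mean as a line and dim arrays as open points. The groups do not overlap for the first 10 genes, overlap for SPIB and IRF4, and NUP42 has a lone low array at 4 h.

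Genes of the integrated stress response changed in both directions. This response slows translation through phosphorylated eIF2alpha and raises the factor ATF4. PPP1R15A, known as GADD34, brings the phosphatase that ends it, and had 8.56, 8.66 and 8.62 at 8 h, against 10.4, 9.79 and 9.75 at 4 h. It fell by 1.35 (SE 0.17, adjusted p = 0.000409) with no overlap and with an SD of only 0.048 among the later arrays. SLC7A1, an importer of cationic amino acids, fell by 0.87 (SE 0.15), ATF5, a factor of the same pathway, by 0.96 (SE 0.26) and PSAT1, a serine synthesis enzyme, by 0.43 (SE 0.12). The tRNA synthetases SARS1 (0.84, SE 0.18) and GARS1 (0.66, SE 0.13) rose. That is 2 higher and 4 lower of 25 tested, 24% called against 6.87% of all features, with a median of -0.10 and in DMSO of -0.18 with 1 call. The call was lost in 4 of 6 fits without an array for ATF5 (adjusted p up to 0.13, without 8 h replicate 1) and for PSAT1 (up to 0.172, without 8 h replicate 2).

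Immediate early genes, many of which code for transcription factors, had 3 of 20 tested members lower (15%, against 2.84% of all features) and 0 higher. The list median was -0.06. In DMSO the median was -0.17, with 2 called lower. JUND, an AP-1 subunit, had 10.6, 10.2 and 10.5 at 8 h, against 11.9, 12.2 and 11.7 at 4 h. It fell by 1.48 (SE 0.13, adjusted p = 2.11e-05), and the gap between the groups was wider than the spread within either. FOSB, another AP-1 subunit, had 6.44, 6.66 and 6.56 at 8 h, against 7.77, 7.96 and 7.17 at 4 h (-1.08, SE 0.21, adjusted p = 0.00562), and was above background on 2 of the 3 later arrays. MYC, the growth-promoting transcription factor, had 7.48, 7.79 and 7.43 at 8 h, against 8.36, 8.00 and 8.29 at 4 h, and fell by 0.65 (SE 0.14, adjusted p = 0.0128). Its call was missed without 8 h replicate 3 (adjusted p = 0.0608).

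NF-kB drives survival of the activated B cell type, and its own inhibitors are among its targets. Of 25 tested targets and feedback genes 3 fell (12%, against 2.84% of all features) and 0 rose, and the median was -0.23, beside -0.18 with 1 call in DMSO. NFKBIE, the inhibitor IkB epsilon, had 8.56, 8.94 and 8.83 at 8 h, against 10.1, 10.8 and 9.90 at 4 h (-1.47, SE 0.23, adjusted p = 0.0016). NFKBIA, the inhibitor IkB alpha, fell by 0.60 (SE 0.14) and CD83, an activation antigen, by 0.80 (SE 0.15). NFKBIA missed the call without 8 h replicate 1 (adjusted p = 0.0525) and without 8 h replicate 3 (0.0567). Among 23 tested B cell surface antigens 6 fell and 0 rose, 26.1% against 2.84% of all features, with a median of -0.22. In DMSO the median was -0.19, with 4 called lower. These are the costimulatory ligand CD86 (-0.93, SE 0.13), CD83, CD48 (-0.73, SE 0.13), CD70 (-0.72, SE 0.16), the adhesion receptor CD44 (-0.61, SE 0.14) and the tetraspanin CD53 (-0.44, SE 0.10). CD86 had 8.81, 8.84 and 8.68 at 8 h, against 9.65, 9.92 and 9.53 at 4 h, and its other probes differed by -0.55 and -0.06 (mean of its probes -0.51). The calls of CD70 and CD53 were lost in 2 of 6 fits each, with adjusted p up to 0.0691 without 8 h replicate 2 for CD70 and 0.0583 without 8 h replicate 3 for CD53. The other probes of CD44 above background lay near 0 (-0.06 and 0.05), and the mean of its probes was not called (-0.21, adjusted p = 0.168). The chemokine receptor CXCR5, which guides B cells to follicles, fell by 0.78 (SE 0.14, adjusted p = 0.00413).

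The B cell receptor list had 0 of 18 tested members called, where 6.87% of all features were called. Its largest moderated statistics were those of RASGRP3, an exchange factor for RAS, at -0.61 (SE 0.18, adjusted p = 0.0535) and INPP5D, the phosphatase SHIP1, at 0.51 (SE 0.15, adjusted p = 0.0577). Both passed without 8 h replicate 1 (adjusted p = 0.0455 for RASGRP3 and 0.0243 for INPP5D) and without 4 h replicate 3 (0.0108 and 0.0198).

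SPIB, the ETS factor the series title names, had 7.57, 8.15 and 8.34 at 8 h, against 7.60, 8.49 and 7.86 at 4 h. Its groups overlapped, and the difference was 0.04 with an interval from -0.67 to 0.74. IRF4 had 8.03, 9.03 and 9.08 at 8 h, against 8.68, 8.82 and 8.99 at 4 h (-0.12, interval from -0.64 to 0.41). The lowest array of both genes at 8 h was the dim replicate 1. Among bright arrays SPIB differed by 0.64 and IRF4 by 0.37, among dim arrays by -0.61 and -0.87. With the dim U2932 arrays left out, which leaves 1 array at 4 h, SPIB and IRF4 passed (adjusted p = 0.0264 and 0.0306). DHX9, the helicase, had 8.38, 8.33 and 8.30 at 8 h, against 8.17, 6.64 and 8.39 at 4 h (0.60, SE 0.30, adjusted p = 0.235), with 0.06 without 4 h replicate 2 and 0.93 without 4 h replicate 3, where it passed (adjusted p = 0.0466). Its other probes lay between -0.16 and 0.06. Of 16 tested ETS family members only ETS1 was called, a share of 6.25%, near the 6.87% of all features. ETS1 had 10.5, 11.1 and 10.6 at 8 h against 10.2, 10.1 and 9.93 at 4 h (0.66, SE 0.14, adjusted p = 0.012). A second ETS1 probe differed by -0.35, and the mean of both was not called (0.16, adjusted p = 0.501).

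Lists of growth and metabolism were read in the same way. Genes under NRF2, the factor for defence against oxidants, had 6 of 18 tested members higher (33.3%, against 4.02% of all features) and 0 lower, with a median of 0.28. In DMSO the median was -0.09 and 0 were called, where only 1.43% of all features were called. PGD, an NADPH-making enzyme of the pentose phosphate pathway, had 9.87, 9.54 and 9.44 at 8 h, against 8.87, 8.84 and 9.16 at 4 h (0.66, SE 0.12, adjusted p = 0.00514). KEAP1, the repressor of NRF2 (0.83), GCLM, for glutathione synthesis (0.68), SRXN1, sulfiredoxin (0.61), FTL, the ferritin light chain (0.49), and TKT, transketolase (0.42), were the others. Only the call of PGD held in each of the 6 fits without an array. GCLM kept its call in 4 of them, KEAP1 in 3, SRXN1 and TKT in 2 and FTL in 1. KEAP1 had adjusted p = 0.118, GCLM 0.0586, SRXN1 0.112, FTL 0.161 and TKT 0.127 without 8 h replicate 1, the dim array. Without that array FTL differed by 0.32, and without 4 h replicate 2 KEAP1 differed by 0.49, GCLM by 0.44 and SRXN1 by 0.33.

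Ribosome biogenesis and MYC target genes had 6 of 36 tested members higher and 1 lower, 19.4% called against 6.87% of all features, with a median of 0.19. In DMSO the median was 0.02, with 1 called lower. WDR12, for maturation of the large ribosomal subunit, rose by 0.95 (SE 0.18), SRM, spermidine synthase, by 0.79 (SE 0.19), NME1, a nucleoside diphosphate kinase, by 0.76 (SE 0.16), CAD, for pyrimidine synthesis, by 0.73 (SE 0.16), POLR1C, a subunit of RNA polymerases I and III, by 0.67 (SE 0.18) and HEATR1, for 18S ribosomal RNA, by 0.59 (SE 0.11). PES1, the WDR12 partner, fell by 0.68 (SE 0.20, adjusted p = 0.05). The calls of WDR12, NME1, CAD and HEATR1 held whichever array was left out, though the mean of the NME1 probes was not called (0.45, adjusted p = 0.118), while without 8 h replicate 1 the adjusted p was 0.0851 for SRM, 0.0617 for POLR1C and 0.18 for PES1. SRM kept its call in 3 of the 6 fits without a YK-R array, POLR1C in 2 and PES1 in 1. POLR1C differed by 0.44 without 4 h replicate 2.

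Mitosis genes had 4 of 48 tested members higher, CCNA2, the cyclin of S phase and G2 (0.72), the kinesin KIF20A (0.63) and the kinases AURKB (0.59) and BUB1 (0.53), with 0 lower and a median of 0.19. The share called, 8.33%, was near the 6.87% of all features. In DMSO 0 were called, against 1.43% of all features. Of these, KIF20A kept its call in all 6 fits, AURKB in 3, BUB1 in 2 and CCNA2 in 1. Without 4 h replicate 2 the adjusted p was 0.0949 for CCNA2, 0.103 for AURKB and 0.0835 for BUB1. In glycolysis the enzymes ALDOA (1.03, SE 0.18), GAPDH (0.78, SE 0.13) and TPI1 (0.61, SE 0.11) rose. The hypoxia-responsive BNIP3L, a mitophagy receptor (-0.77, SE 0.11), and the peptide ADM (-0.48, SE 0.14) fell. Of 31 tested members of the glycolysis and hypoxia list 16.1% were called, against 6.87% of all features. The list median was 0.05, beside -0.14 and 1 call in DMSO. The means of the probes were 0.36 for TPI1 and -0.50 for BNIP3L. ADM lost its call whichever array was left out, with adjusted p up to 0.153 without 8 h replicate 1. Cholesterol and fatty acid synthesis had 4 of 28 tested members lower (14.3%, against 2.84% of all features) and 0 higher. The median was -0.04, and in DMSO 0.01 with 2 called lower. Those that fell under YK-R were ACSS2, acetyl-CoA synthetase (-0.88, SE 0.13), the sterol enzymes SC5D (-0.81, SE 0.21) and CYP51A1 (-0.77, SE 0.18), and the desaturase FADS1 (-0.56, SE 0.11). Without 1 array SC5D reached an adjusted p of 0.132 (8 h replicate 3) and CYP51A1 0.0609 (8 h replicate 1). SC5D kept its call in 2 of the 6 fits and CYP51A1 in 5. In the BCL2 family PMAIP1, the killer protein NOXA, had 11.05, 11.33 and 11.25 at 8 h, against 11.81, 12.43 and 11.64 at 4 h (-0.75, SE 0.18, adjusted p = 0.0234), and without 8 h replicate 1 its adjusted p was 0.0807. BNIP3L fell and BCL2L13 rose (0.49, SE 0.14, adjusted p = 0.0419, and 0.128 without 8 h replicate 2). PMAIP1 kept its call in 3 of the 6 fits and BCL2L13 in 1. The share called was 16.7% of 18 tested members, against 6.87% of all features.

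The remaining lists had from 0 to 7 calls. The share called was 23.1% for chromatin modifiers, 16.7% for snoRNP proteins and 14.6% for splicing genes, against 6.87% of all features, and it was 4.35% for replication genes, 4.55% for ribosomal proteins and 1.96% for respiratory chain genes. MEF2C, a B cell transcription factor, was the only one of 17 B cell identity genes called (-0.83, SE 0.15, adjusted p = 0.00422), and DDX5, an RNA helicase, the only one of 9 genes around DHX9 and the FET proteins (-0.64, SE 0.12). Splicing genes ran both ways, with 4 of 48 higher, among them SNRPD3 of the snRNP core (0.82, SE 0.21), and 3 lower, among them U2AF2, which binds the polypyrimidine tract (-0.64, SE 0.10). Of 18 snoRNP proteins 2 rose, RUVBL1 (0.83) and RUVBL2 (0.49), and GAR1 fell (-0.51). UHRF1, which helps copy DNA methylation, and the ligase LIG1 rose among 46 replication genes (0.70 and 0.47), and RPL29 and RPL3 rose (0.66 and 0.71) and RPL14 fell (-0.49) among 66 ribosomal proteins. Among 13 chromatin modifiers BCOR (-0.73) and EZH2 (-0.46) fell and HDAC7 rose (0.39). Of 33 histone genes H1-10 and H3-3B (-0.58) fell, and of 21 p53 targets PMAIP1 and GADD45B (-0.55). The shares called were 6.06% and 9.52%. A single gene was called in each of the following lists: NDUFV1 of 51 respiratory chain genes (0.43), IRF9 of 23 interferon genes (0.46), HLA-DPA1 of 14 class II genes (0.69), IL21R of 14 cytokine pathway genes (-0.62), TUBB2B of 16 tubulins (-0.61) and the clock gene PER2 of 9 (-0.69). MYC was the only call of 9 genes in its network, and CXCR5 of 16 chemokine and homing genes. The lists with 1 call had shares from 1.96% to 11.1%, against 6.87% of all features. HLA class I (15 tested), plasma cell genes (18) and snoRNA host genes (15) had 0 calls, with medians of 0.05, -0.16 and -0.01. MEF2C, DDX5, IL21R and CXCR5 were called in each of the 6 fits without a YK-R array, as were 2 of the 7 splicing genes, 1 of the 3 ribosomal proteins and 1 of the 2 replication genes. Every other call in this group of lists was missed in at least 1 of those fits.

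**Figure D4:**
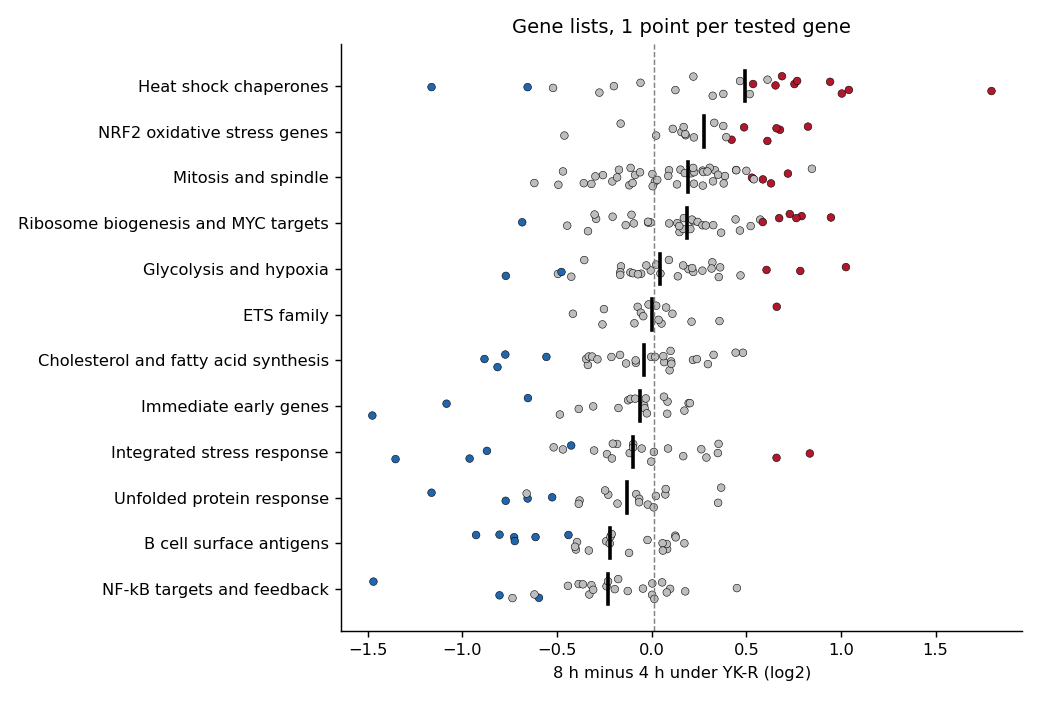
Log2 difference of 8 h minus 4 h under YK-R (horizontal axis) for the tested genes of 12 lists, 1 point per gene, with genes called higher in red, called lower in blue and the others in grey; the black bar is the list's median and the dashed line the median of all features. Heat shock chaperones have the highest median, 0.49, and NF-kB targets the lowest of these, -0.23. The NF-kB median was -0.11 among bright arrays and -0.40 among dim arrays. Among bright arrays the unfolded protein response list was the lowest of these, at -0.28.

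The 15 largest increases with separated arrays were those of HSPA1B, AMY1B, DEDD2, TRAPPC4, NUP42, UTP14A, PAAF1, MRPL18, METTL3, KRT10-AS1, RBM4B, STIP1, ALDOA, ATP6V0D1 and CCT3, from 1.02 to 1.79 on the log2 scale. TRAPPC4, a subunit of a vesicle tethering complex, had 10.97, 10.58 and 10.87 at 8 h, against 9.838, 9.218 and 9.944 at 4 h (1.14, SE 0.17, adjusted p = 0.00146). DEDD2, a death effector domain protein of the nucleus, rose by 1.15 (SE 0.24), and METTL3, the methyltransferase that writes m6A in mRNA, by 1.06 (SE 0.24). The SD of METTL3 was 0.071 among the 8 h arrays and 0.71 among the 4 h arrays, which the pooled SE does not show. AMY1B, a salivary amylase gene, is one of several near-identical copies that a probe may not tell apart. Its other probe differed by 0.19 and the mean of its probes by 0.69. NUP42, a nuclear pore protein, had 9.24, 9.03 and 8.76 at 8 h, against 8.25, 6.91 and 8.51 at 4 h. Its replicate 2 at 4 h lay far under the other 2, the difference was 1.12 (SE 0.32, adjusted p = 0.0461), and it was 0.63 without that array. The same array was the lowest of its group in 13 of these 15 genes and in 457 of all 618 features called higher. PAAF1, a proteasome-binding protein, was above background on 2 of 3 arrays at 4 h.

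Within the 15 increases some calls were missed when a YK-R array was left out. NUP42 kept its call in 2 of the 6 fits (adjusted p up to 0.139) and PAAF1 in 3 (0.0978). MRPL18 of the mitochondrial ribosome kept it in 3 (0.103) and UTP14A of 18S ribosomal RNA processing in 5 (0.0586). These highest values came without 8 h replicate 1. KRT10-AS1 kept its call in 4 fits (up to 0.0986 without 8 h replicate 3). Another KRT10-AS1 probe differed by -0.13, and the mean of its probes was not called (0.46, adjusted p = 0.0809), nor was that of NUP42 (0.97, adjusted p = 0.0614). Without 4 h replicate 2 PAAF1 differed by 0.53, MRPL18 by 0.57, UTP14A and METTL3 by 0.65 and KRT10-AS1 by 0.63.

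The 15 largest decreases were those of ZNF215, RARA, GASK1B, JUND, LARP1B, NFKBIE, H1-10, SLA, PPP1R15A, PLD3, UBE2J1, UBE2E1, TENT5C, SS18 and TYMSOS, from -1.75 to -1.25. LARP1B, an RNA-binding protein of the La family, had 7.96, 8.00 and 8.02 at 8 h, against 9.45, 9.62 and 9.32 at 4 h, and fell by 1.47 (SE 0.099, adjusted p = 1.01e-06, the lowest of all features). Its other probes above background ran from -0.33 to 0.24, and the mean of its probes was -0.52. ZNF215, a zinc finger protein, averaged 8.17 ± 0.11 at 8 h and 9.93 ± 0.45 at 4 h (SD, n = 3 arrays each). RARA, the retinoic acid receptor alpha, averaged 7.61 ± 0.081 at 8 h and 9.14 ± 0.65 at 4 h. GASK1B was above background on 2 of 3 arrays at 8 h. SLA, an adaptor that dampens antigen receptor signalling, fell by 1.38 (SE 0.20, adjusted p = 0.00105), and TENT5C, a poly(A) polymerase that acts as a tumour suppressor in plasma cell myeloma, by 1.28 (SE 0.15, adjusted p = 0.000341). UBE2J1 and UBE2E1 are ubiquitin-conjugating enzymes, the first of them in degradation from the endoplasmic reticulum, and fell by 1.33 (SE 0.22) and 1.29 (SE 0.18). The other UBE2E1 probe differed by -0.34 (mean of its probes -0.81), and that of PLD3, a lysosomal protein, by -0.18 (mean -0.77). The linker histone H1-10 fell by 1.44 (SE 0.33) and had adjusted p = 0.0525 without 8 h replicate 3, and it differed by -0.94 without 4 h replicate 2. SS18, a subunit of the BAF chromatin remodeller, fell by 1.26 (SE 0.31), missed the call without each of the 8 h arrays in turn (adjusted p from 0.0597 to 0.0612) and had another probe at 0.38, with a mean of its probes that was not called (-0.31, adjusted p = 0.255). The 4 h replicate 2 was the highest of its group in 11 of these 15 genes and in 236 of all 437 features called lower.

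The same time difference was tested in the other 2 treatments, which share no array with YK-R. YK-S had 763 called features (4.97%) and DMSO 220 (1.43%). Of the YK-R calls, 381 were also called in the same direction under YK-S, 36.1% of the YK-R calls and 49.9% of the YK-S calls, and 92 in DMSO, 8.72% and 41.8%. There were 79 called in all 3 and 0 called in opposite directions. Of the 618 features higher under YK-R, 592 were above 0 under YK-S and 447 in DMSO, and of the 437 lower ones 422 and 370 were below 0. Of all 15365 features, 8447 were above 0 under YK-S and 8225 in DMSO. Over all features the time difference under YK-R correlated with that under YK-S at r = 0.494 and with that in DMSO at r = 0.321. Among bright arrays alone r with YK-S was 0.841 and among dim arrays 0.120, where each class holds the same numbers of arrays under both compounds. Among bright arrays r with DMSO was 0.353, and DMSO had 0 dim arrays at 8 h. The bright class holds 1 array at 4 h in each treatment, and the dim class 1 at 8 h under each compound. In TMD8 cells, normalized apart, 314 of the 618 were above 0 and 231 of the 437 below 0 under YK-R, with r = -0.051, where 7001 of all features were above 0.

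Among the 15 largest increases 5 were called under YK-S and 3 in DMSO, and among the 15 largest decreases 12 and 7. JUND fell under YK-S by 1.20 and in DMSO by 1.05, both called, and LARP1B by 1.24 and 0.82. HSPA1B differed by 1.41 under YK-S and 1.40 in DMSO (adjusted p = 0.00573 and 0.0136), HSPH1 by 1.10 and 0.90, and STIP1 by 1.02 and 0.56 (adjusted p = 0.0561 in DMSO). HSPA5 fell by 1.35 under YK-S and by 0.71 in DMSO. MYC fell by 1.07 under YK-S and by 0.98 in DMSO, beside 0.65 under YK-R. Neither difference of MYC from YK-R was called in limma (adjusted p = 0.646 for YK-S and 0.525 for DMSO). All 15 of the largest increases were above 0 under YK-S and 12 in DMSO, where ALDOA (-0.27), ATP6V0D1 (-0.19) and CCT3 (-0.16) were below; all 15 of the largest decreases were below 0 under YK-S and 14 in DMSO, where SS18 was at 0.14.

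**Figure D5:**
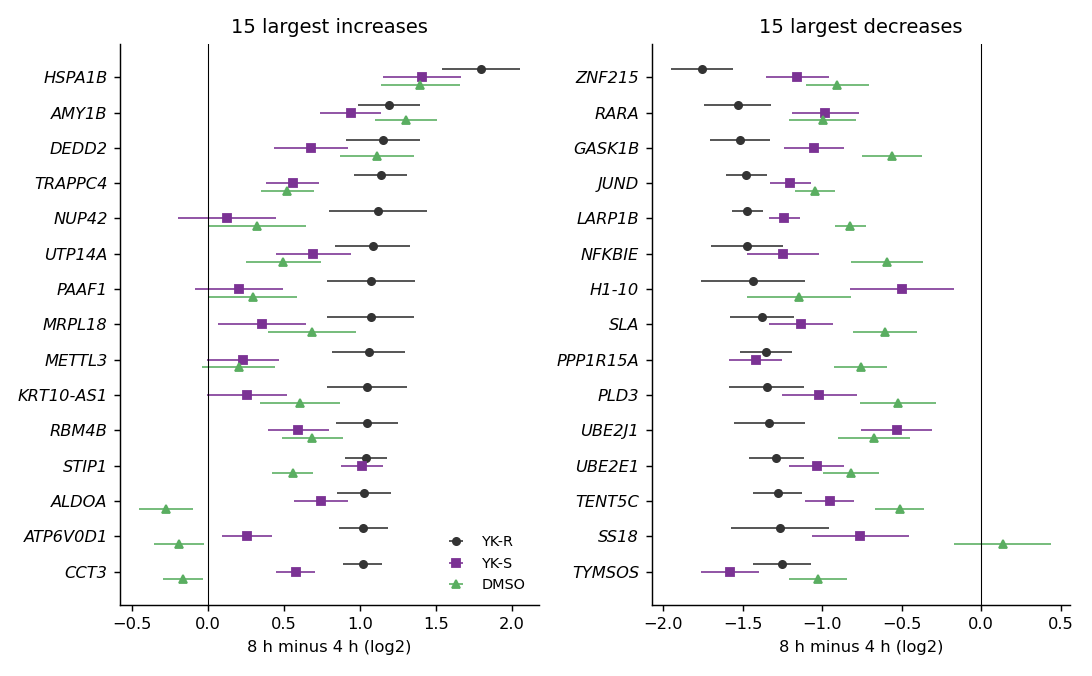
Log2 difference of 8 h minus 4 h (horizontal axis, bars are 1 SE) of the 15 genes with the largest increase (left) and the 15 with the largest decrease (right) under YK-R, with the values under YK-S and in DMSO beside them. YK-S lies on the side of YK-R for all 30 genes, and DMSO lies on the other side for ALDOA, ATP6V0D1, CCT3 and SS18.

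Whether the time difference itself differed between treatments was tested as an interaction. YK-R against DMSO gave 0 calls in limma (1849 features had an unadjusted p under 0.05, where 768 would be expected, and the lowest adjusted p was 0.0534), and YK-R against YK-S gave 0 (921, with a lowest adjusted p of 0.646). Leaving out 4 h replicate 1 or 4 h replicate 2 of YK-R gave 39 calls each against DMSO, leaving out 8 h replicate 2 gave 3, and leaving out the dim arrays gave 1115. That last fit holds 1 array for YK-R at 4 h and 1 for DMSO at 4 h, which are assumed to vary like the others.

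The genes with separated YK-R arrays that came nearest are given by name without having passed. Against DMSO the time difference was higher under YK-R for CCT3 (difference 1.18, SE 0.18, adjusted p = 0.0534), the centromere protein CENPT (1.27, SE 0.20), IDH3G, a subunit of mitochondrial isocitrate dehydrogenase (1.20, SE 0.20), PGD (1.03, SE 0.17) and BANF1, a chromatin barrier protein (1.31, SE 0.24). For CCT3 the 2 parts are 1.02 under YK-R and -0.16 in DMSO, and for PGD 0.66 and -0.37. It was lower under YK-R for the deubiquitinase USP1 (-1.10, SE 0.19), the zinc finger gene ZNF784 (-0.87, SE 0.16), PGRMC2, a haem-binding membrane protein (-0.74, SE 0.13), the mRNA export factor FYTTD1 (-1.32, SE 0.26) and DEGS1, the enzyme that makes ceramide from dihydroceramide (-0.74, SE 0.16). Adjusted p ran from 0.0534 to 0.124 over these 10. CENPT was above background on 2 of 3 YK-R arrays at 4 h, and ZNF784 on 2 of 3 at 8 h. Second probes of USP1 and DEGS1 lay above 0 under YK-R (0.22 and 0.34), and over the means of all probes the interaction was 0.44 for CCT3, -0.55 for USP1 and -0.68 for FYTTD1. Without 4 h replicate 2, CCT3, CENPT, USP1 and PGRMC2 passed at an adjusted p of 0.0205, IDH3G at 0.0231, PGD and BANF1 at 0.0237 and ZNF784 at 0.0294. Without 4 h replicate 1, CCT3, IDH3G, CENPT, PGD and USP1 passed (0.0403 to 0.0453), and without 8 h replicate 2, CCT3 and IDH3G (0.0445).

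Against YK-S the nearest were ETFA, for electron transfer in fatty acid oxidation (0.74, SE 0.19), COA7, a cytochrome oxidase assembly factor (0.83, SE 0.23), the small nucleolar RNA SNORA24 (0.83, SE 0.24), SERGEF (0.68, SE 0.20) and PGD (0.63, SE 0.17) on the higher side. PMAIP1 (-0.87, SE 0.26), HNRNPCL3 (-0.77, SE 0.25), PLGLA (-0.47, SE 0.15), USP6NL, a GTPase activator (-0.50, SE 0.16), and LRIG1, a receptor antagonist (-0.59, SE 0.19), were on the lower side, each with an adjusted p of 0.646. HNRNPCL3 and PLGLA belong to families of near-identical copies, and each was above background on 2 of 3 YK-R arrays at 8 h. Over the means of all probes it was -0.28 for PLGLA and -0.22 for LRIG1. PMAIP1 fell under YK-R by 0.75 and differed by 0.12 under YK-S and by -0.02 in DMSO, and PGD differed by 0.66, 0.02 and -0.37 in the same order. The interval of a time difference reached a median of 0.308 to either side, and these p-values do not show that YK-R and YK-S act alike.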

How the data were processed

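The deposited signal table holds intensity values of 47231 probes, and the deposited value table log2 values of the same probes. GenomeStudio is named in the submitters' processing notes, and its version and settings are not given in the sources used here. RNA came from a column kit and was labelled as biotin cRNA, per the labels. The sorted log2 values of the 18 deposited U2932 columns differ by at most 0.0047, and the normalization method is not given in the sources used here. The members and gene lists were chosen with earlier results of these data known. Raw signals were paired with value columns by rank correlation, 0.999996 or more, while same-named U2932 columns reached 0.597 to 0.900. A probe was above background at p under 0.05 in the upper tail of a normal curve at the mode of its array's log2 signals. The 18774 probes above background on all 3 arrays of a U2932 group were kept, and the brightest stood for each gene. Symbols came from the platform table (30113 probes with 1, 8 with several, 17110 with none) and 30074 were matched to RefSeq. Group means over the 18 arrays were fitted by lmFit and eBayes (limma 3.58.1, R 4.3.3, residual df 12), two-sided, with Benjamini-Hochberg adjustment over 15365 features. The fit was also run on simulated arrays of equal spread, which cannot show how arrays of unequal spread affect the calls. Intervals are at 95%. Named are the 15 largest called changes each way with separated arrays, the 5 nearest each way of each interaction, called members of 38 lists (or the 2 of largest statistic) and SPIB, IRF4, MYC and DHX9. Replicate numbers only name arrays. The number of arrays limits the precision. Alternatives varied filter, probes, names, background, scaling, brightness and arrays.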

Additional observations from a re-analysis of the deposited data

How the results depend on the processing

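Against 1055 called features there were 691 with no detection filter, 693 after normexp and quantile normalization of the signals, 148 with array weights and 2309 with the dim arrays left out, and 0 in the 6 YK-R arrays alone (1734 at an unadjusted p under 0.05), after median scaling (434), under the signal table's names with deposited values (2348) or with normexp (2242) and, chosen after seeing the data, in the dim arrays alone (1541). Leaving out a YK-R array gave 509 to 2194. Of the calls made, 43.2% were higher with array weights (132 of the 148 are among the 1055), 45.7% without the dim arrays and 44.1% without 4 h replicate 2, against 58.6%. The interaction with DMSO had 0 calls, against 2 with array weights, 1115 without the dim arrays, 0 to 39 without a YK-R array and, chosen after seeing the data, 22 without both 8 h replicate 1 and 4 h replicate 2; that with YK-S had 0 in every setting run. Of the 30 genes with the largest changes 0 turned direction in any setting run. Their choice by separated arrays fixes this in advance for fits that only leave out or weight arrays. All 30 lost their call in the YK-R arrays alone, under median scaling and under both signal-name settings, and 13 with array weights. Median scaling left the decreases at -0.76 (ZNF215) to -0.41 (SS18). It put the list median of NF-kB targets at 0.22 and that of B cell surface antigens at 0.27. The unfolded protein response list lay at 0.36, the integrated stress response list at 0.42 and heat shock chaperones at 0.90. Median scaling moved the median of all features to 0.25, and there MYC lay at 0.024, HSP90B1 0.18, SDF2L1 0.040, CANX 0.22, NFKBIA 0.22, CD83 0.047, CD70 0.026, CD44 0.21, CD48 0.16, CD53 0.31, PSAT1 0.32, PES1 0.17, BNIP3L 0.016, ADM 0.37, FADS1 0.21, CXCR5 0.039, HSP90AA1 0.023, RASGRP3 0.18 and IRF4 0.75. The mean of all probes put CANX at 0.0068 and DEGS1 (YK-R minus DMSO) at 0.068. Under the signal table's names, with deposited values and with normexp, PGD lay at -0.070 and -0.076, NME1 at -0.044 and -0.044, PES1 at 0.091 and 0.12, CCNA2 at -0.12 and -0.13, AURKB at -0.077 and -0.089, PMAIP1 at 0.098 and 0.10 and IRF4 at 0.069 and 0.082. In the same settings YK-R minus YK-S was -0.19 and -0.19 for ETFA, -0.041 and -0.044 for PGD, -0.18 and -0.22 for SNORA24, -0.11 and -0.21 for SERGEF, 0.25 and 0.26 for PMAIP1, 0.16 and 0.46 for PLGLA, 0.062 and 0.074 for USP6NL, 0.085 and 0.093 for LRIG1 and, with normexp, 0.0018 for HNRNPCL3. SPIB ran from -0.15 to 0.29 and IRF4 from -0.30 to 0.22 without a YK-R array. SPIB was -0.61 in the dim arrays alone, and IRF4 was 0.11 with array weights, 0.37 without the dim arrays and 0.22 without both arrays. The cause of these changes was not tested. No paired analysis was possible because replicate numbers follow accession order and the labels pair no arrays. Arrays of low signal and 3 arrays a group limit what can be seen.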

Other observations

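Arrays differed in how closely they followed their group. In the fit with array weights, where a higher weight means closer to the group mean, YK-R replicates 1, 2 and 3 had weights of 0.306, 2.76 and 2.92 at 8 h, against 0.225, 0.0427 and 0.480 at 4 h. The 4 h replicate 2 had the lowest weight of the 18 U2932 arrays.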
